A study of Homo sapiens with 6 samples.

Results

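Myc binding was examined at 8 genes of cholesterol synthesis and its control: SREBF1, SREBF2, INSIG1, HMGCS1, IDI1, FDFT1, SQLE and LSS. They were taken by name from 19825 protein-coding genes with a basic GENCODE transcript. A Myc ChIP-seq peak was given to a gene when its summit was at most 5 kb from a start site of transcription (TSS), counted from the nearest TSS of that gene, with negative offsets upstream. The cells were MDA-MB-231, a human triple-negative breast cancer line, either parental or TKO. TKO cells were made by CRISPR-Cas9 with guides against TXNIP, the thioredoxin interacting protein, and grown from single cells, so other differences of such clones cannot be told apart from the loss of TXNIP. Both lines were grown in the same serum-containing medium. There were 2 Myc libraries per line, described by the study as biological replicates, and 2 input libraries that have no peak list here. The 4 Myc libraries had 3720 and 5719 peaks in parental replicates 1 and 2 and 27213 and 25887 in TKO replicates 1 and 2. Their recovered depth was 26.4, 22.2, 19.9 and 13.0 M reads in that order.

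Cells make cholesterol from acetyl-CoA through mevalonate, squalene and lanosterol. The transcription factors SREBP-1 and SREBP-2, encoded by SREBF1 and SREBF2, switch on the genes of this path when sterols are scarce. INSIG1 holds SREBP and its escort SCAP in the endoplasmic reticulum when sterols are plentiful. Myc binds DNA with MAX, preferring the E-box CACGTG, whereas SREBP acts at sterol regulatory elements, often together with NF-Y at CCAAT. Sterol synthesis supplies the membranes of dividing cells. ChIP-seq peaks show where Myc was on the DNA and not whether a gene's RNA changed.

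Myc was bound near 7 of the 8 genes in each TKO library and near few of them in parental cells. SREBF1, INSIG1 and LSS had a peak within 5 kb in parental replicate 1, and LSS alone in parental replicate 2. In both TKO libraries every gene but SQLE had one. This makes 2 ± 1.41 genes in parental cells and 7 ± 0 in TKO (SD, n = 2), a difference of 5. In an exact two-sided permutation test p was 0.333, which no design of 2 against 2 libraries can go below, so no comparison between the lines here could reach the usual threshold for significance. Over all protein-coding genes, 13.9% and 15.5% had such a peak in the parental libraries and 54.5% and 55.5% in the TKO libraries. The members' shares were 37.5%, 12.5%, 87.5% and 87.5%, so these counts are to be read against a background that was also higher in TKO. Within 1 kb of a TSS the same numbers of members were found, 3, 1, 7 and 7, against 12.2%, 12.9%, 49.1% and 49.7% of all genes.

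**Figure D1:**
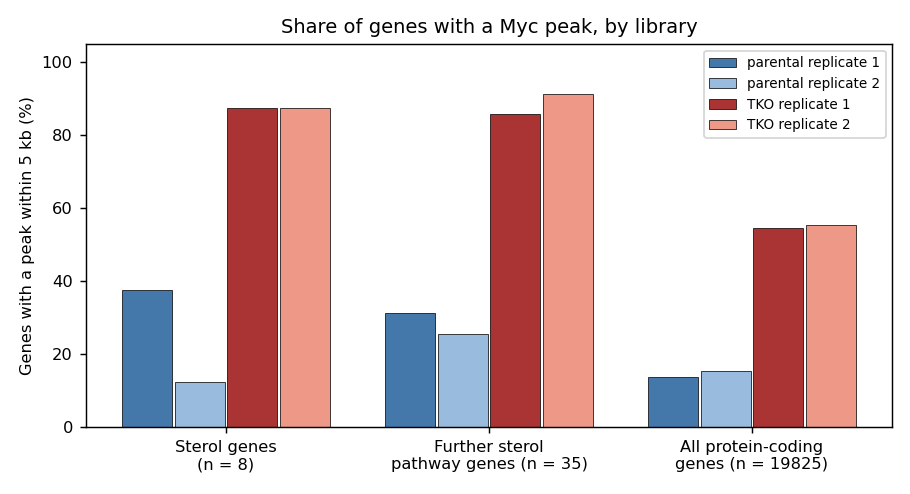
Share of genes, in percent, with a Myc peak within 5 kb of a TSS in each of the 4 libraries, for the 8 sterol genes, the 35 further pathway genes and all 19825 protein-coding genes. The members reach 87.5% in both TKO libraries, where all genes stand at 54.5% and 55.5%.

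Taking the libraries together, SREBF2, HMGCS1, FDFT1 and IDI1 had a peak in each TKO library and none in parental cells. That is 4 of 8 genes, beside 32.4% of all genes. LSS was the 1 member with a peak in all 4 libraries, a pattern of 10.8% of all genes. With every list limited to its 3720 strongest peaks by fold, the member counts were 3, 1, 2 and 2, so the difference in genes bound was 0. Over all genes the shares in these equal lists were 13.88% and 10.89% (parental) and 15.63% and 16.05% (TKO). The lines thus lay much closer there for all genes too. The 2 TKO members left in that setting were LSS and SREBF1 in both libraries.

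The members also carried more separate peaks in TKO. There were 3 and 1 peaks within 5 kb in the parental libraries and 15 and 19 in the TKO libraries, or 2 ± 1.41 and 17 ± 2.83 (SD, n = 2; exact permutation p = 0.333). All bound genes had a mean of 1.13 and 1.14 peaks in the parental libraries and 1.63 and 1.60 in TKO, so more peaks per gene were general there. With 3720 peaks per list the difference fell from 15 to 1. Overlapping peaks formed 17 sites. Of these, 10 were found in both TKO libraries but in no parental one, 4 in a single TKO library, 2 in both TKO libraries and parental replicate 1, and 1 in all 4. No parental site lacked a TKO peak, and 13 of the 17 had a summit within 1 kb of a TSS. Sites of all genes were not classed in this way, so these counts are not shown to be particular to the members. For all bound genes, 86.7% and 81.0% (parental) and 83.2% and 83.1% (TKO) of the strongest peaks lay within 1 kb.

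**Figure D2:**
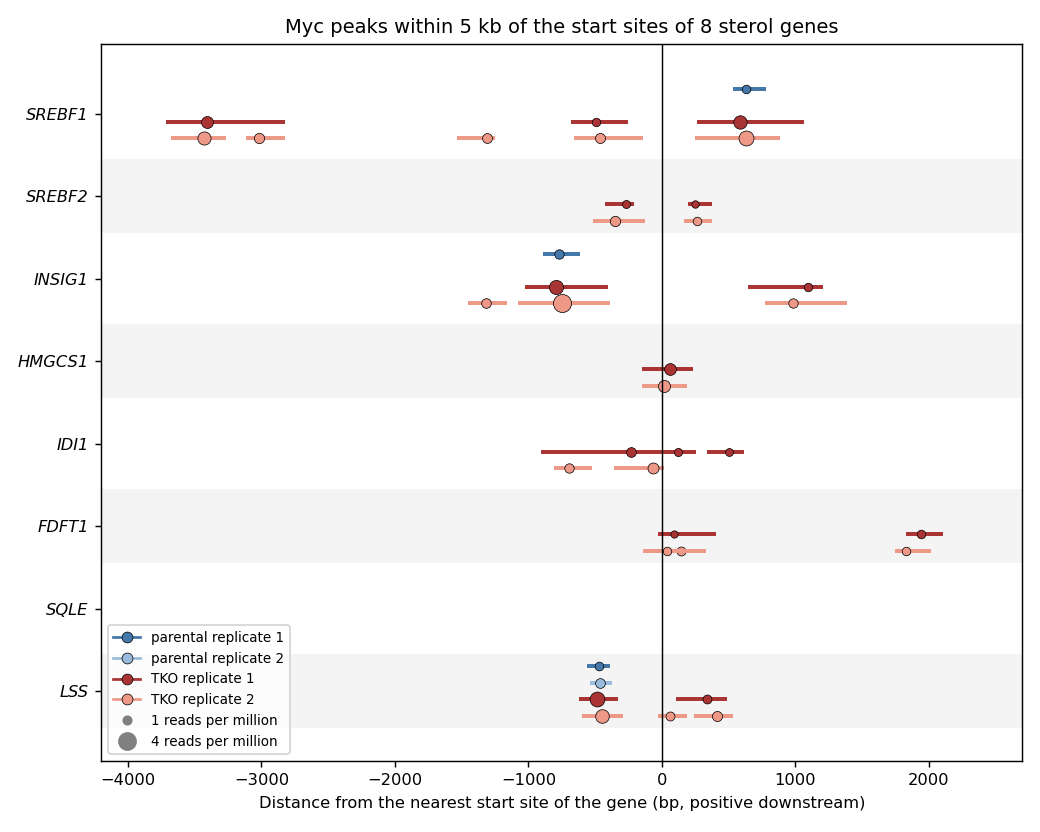
Summit offset from the nearest TSS of the gene, in bp, for each Myc peak within 5 kb of the 8 sterol genes, with 1 row per gene and library, bars for peak width and dot size for summit reads per M. TKO rows hold 15 and 19 peaks and parental rows 3 and 1, and the SQLE rows are empty.

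SREBF1 encodes SREBP-1, which drives fatty acid and sterol genes. Its strongest peak lay in an intron downstream of the TSS, with summits at +627 bp in parental replicate 1, +583 bp in TKO replicate 1 and +626 bp in TKO replicate 2. Parental replicate 2 had no peak within 5 kb, and its nearest summit was 150938 bp away. Ranked by the authors' fold enrichment within each list, where percentile 100 is the strongest peak, the site stood at percentile 19.3 in parental replicate 1 and at 95.5 and 91.4 in the TKO lists. In TKO replicate 1 it spanned chromosome 17, 17739234 to 17740039 (hg19), in the gene ENSG00000072310. The summit held 29, 55 and 43 reads in these 3 libraries, or 1.10, 2.76 and 3.30 reads per M of recovered depth. The peak was 248 bp wide in parental replicate 1 and 806 and 635 bp in TKO. The ratio of its reads per M to parental replicate 1 was 2.51 and 3.01 in TKO replicates 1 and 2. Medians over all genes bound in the pair were 2.36 and 2.68. At an equal fragment extension, which was longer in TKO, the ratios were 1.93 and 2.09 and the medians 1.82 and 1.86. By fold, SREBF1 came next after LSS among the members in TKO replicate 1 and in TKO replicate 2. Upstream, both TKO libraries had a further strong peak at -3407 and -3427 bp, at percentiles 88.6 and 89.5. Both also had a weaker one at -495 and -462 bp.

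The stretches of SREBF1 where an E-box lay near a summit are shown from the forward strand of hg19 with the E-box in capitals. One is chr17:17739617-17739817, centred on the intronic summit of TKO replicate 1. The E-box lay 64, 107 and 108 bp from the 3 summits of that site, outside the window of 50 bp used for counting. The other is chr17:17743286-17743386, around a weaker peak at -3020 bp found in TKO replicate 2, where the E-box was 2 bp from the summit.
SREBF1 intron: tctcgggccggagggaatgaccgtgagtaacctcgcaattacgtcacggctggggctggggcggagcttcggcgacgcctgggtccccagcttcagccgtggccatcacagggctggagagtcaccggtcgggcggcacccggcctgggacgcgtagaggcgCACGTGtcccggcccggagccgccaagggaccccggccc
SREBF1 upstream: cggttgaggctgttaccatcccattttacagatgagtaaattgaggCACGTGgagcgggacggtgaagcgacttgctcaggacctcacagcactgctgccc

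SREBF2 encodes SREBP-2, the main activator of cholesterol synthesis genes. No parental library had a peak within 5 kb, and the nearest parental summits were 144251 and 246158 bp away. Each TKO library had 2 peaks, 1 on either side of the TSS. The upstream summit, at -270 and -350 bp, fell in a noncoding exon of SREBF2-AS1, the antisense gene, 1830 and 1910 bp from its start. The downstream summit lay at +248 and +263 bp, in the UTR of SREBF2 (ENSG00000198911), 913 and 898 bp from the start of SREBF2-AS1. Both summits were nearer to a TSS of SREBF2, but neither peak can be given to one gene of the pair. In TKO replicate 2 the upstream peak spanned chromosome 22, 42228590 to 42228982, and the downstream peak 42229676 to 42229885 (hg19). The peak of higher fold held 14 reads in TKO replicate 1 and 22 in TKO replicate 2, or 0.702 and 1.69 per M, at percentiles 56.8 and 81.9. By fold the downstream peak came first in TKO replicate 1 and the upstream peak in TKO replicate 2. By reads the upstream peak came first in both, with 18 against 14 in TKO replicate 1 and 22 against 14 in TKO replicate 2. Neither peak had an E-box within 50 bp of its summit.

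INSIG1 (ENSG00000186480) is both a target of SREBP and its brake. A peak upstream of the TSS, in a noncoding exon of the divergent transcript INSIG1-DT, was called at -770 bp in parental replicate 1 and at -790 and -752 bp in the TKO libraries. With summits 535, 555 and 517 bp from the start of INSIG1-DT, the peak cannot be given to INSIG1 alone. It held 37, 60 and 57 reads, or 1.40, 3.01 and 4.37 per M, at percentiles 28.1, 82.4 and 79.8. In TKO replicate 1 it spanned chromosome 7, 155088460 to 155089084 (hg19). Its width was 279 bp in parental replicate 1 and 625 and 690 bp in TKO. The ratio of its reads per M to parental replicate 1 was 2.15 and 3.12 in TKO replicates 1 and 2. Medians over all genes bound in the pair were 2.36 and 2.68. At an equal fragment extension, which was longer in TKO, the ratios were 1.65 and 2.17 and the medians 1.82 and 1.86. Parental replicate 2 had no peak within 5 kb. It did have one farther upstream, at -6464 bp, with 45 reads or 2.03 per M, at percentile 8.45 of its list. Both TKO libraries had a peak at that intergenic place too, at -6477 bp, with 73 and 53 reads, or 3.66 and 4.07 per M, at percentiles 82.2 and 80.0. By the 5 kb rule INSIG1 was not bound in parental replicate 2.

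The site beyond 5 kb of INSIG1 was picked out after its values were seen. It is shown because a sterol regulatory element (TCACNCCAC) and a CCAAT box both lay within 50 bp of the summit in parental replicate 2 and in both TKO libraries. A match to that element was found in 0.507% to 0.691% of all peaks of the 4 lists. The stretch is chr7:155082959-155083059 (hg19, forward strand), with the element and the CCAAT box in capitals.
INSIG1 upstream: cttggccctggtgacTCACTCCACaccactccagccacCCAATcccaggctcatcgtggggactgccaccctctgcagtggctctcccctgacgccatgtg

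Among the enzymes, LSS (ENSG00000160285), lanosterol synthase, makes the first sterol ring of the path. By fold it had the strongest member peak in each of the 4 lists. Summits lay at -471 and -461 bp in parental replicates 1 and 2 and at -489 and -452 bp in the TKO libraries. In TKO replicate 1 the peak spanned chromosome 21, 47649068 to 47649357 (hg19). The peak ranked 527 and 229 in the parental lists and 371 and 984 in the TKO lists, at percentiles 85.9, 96.0, 98.6 and 96.2. It held 30 reads (exact Poisson 95% interval 20.2 to 42.8) and 33 reads (22.7 to 46.3) in parental cells, and 65 reads (50.2 to 82.8) and 37 reads (26.1 to 51.0) in TKO. Reads may be PCR copies, so these intervals cover counting error only. Divided by depth, the values were 1.14 and 1.49 reads per M in parental replicates 1 and 2 and 3.26 and 2.84 in TKO replicates 1 and 2, with both TKO libraries above both parental ones.

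The means at LSS were 1.31 ± 0.249 and 3.05 ± 0.298 reads per M (SD, n = 2), a difference of 1.74 (exact permutation p = 0.333). The difference was 0.985 when reads were scaled to the shortest extension length, the extension being longer in TKO. The ratio of the means, 2.32, was below the median of 2.54 over the 2146 genes with a peak in all 4 libraries, at percentile 33.4 of them. This order depended on the library pair. Against parental replicates 1 and 2 the ratio was 2.87 and 2.19 in TKO replicate 1, with medians of 2.36 and 2.18 over all genes bound in the pair, and 2.50 and 1.91 in TKO replicate 2, with medians of 2.68 and 2.50. The percentile of LSS among those genes ranged from 18.9 to 81.8. The genes whose 4 values came closest to those of LSS, out of 2145, were NLRP1, EPRS1 and ERP29, at distances of 0.118, 0.135 and 0.152 on the log2 scale.

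The LSS summit was 29, 19, 47 and 10 bp from the start of MCM3AP-AS1, a noncoding gene that starts upstream of LSS, and so cannot be given to LSS alone. No E-box lay within 200 bp of the summit in any library. The stretch chr21:47649177-47649277 (hg19, forward strand), around the summit of TKO replicate 1, is shown as the strongest member peak. It holds none of the 4 motifs searched, so no letter is in capitals. TKO replicate 1 had a further peak at +337 bp and TKO replicate 2 at +412 and +60 bp, the last with an E-box.
LSS promoter: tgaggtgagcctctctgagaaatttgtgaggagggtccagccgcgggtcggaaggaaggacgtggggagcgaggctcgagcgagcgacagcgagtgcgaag

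**Figure D3:**
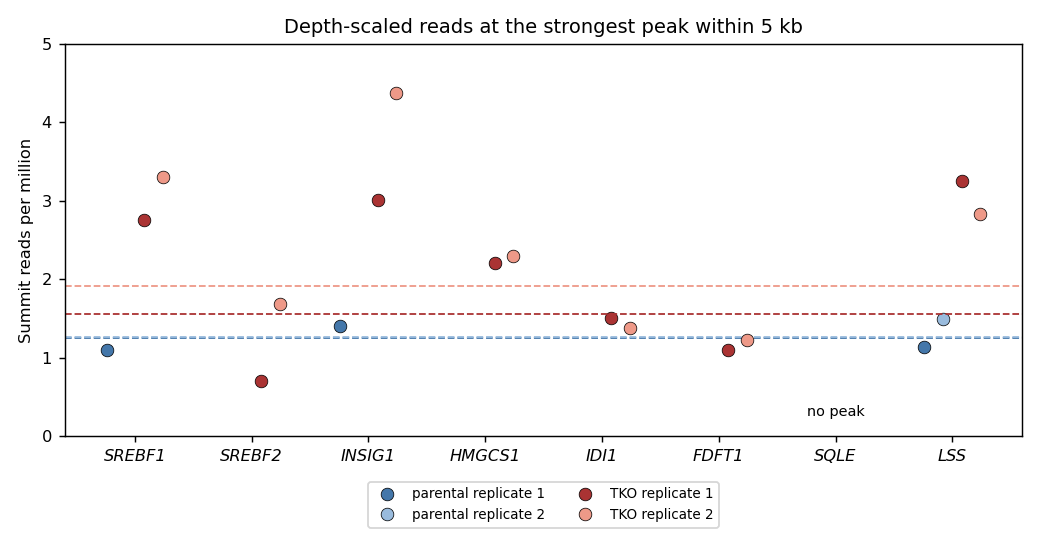
Reads at the summit of each member's strongest peak within 5 kb, per M reads of recovered depth, in each of the 4 libraries, with dashed lines at the median of all protein-coding genes that have a peak in that library. LSS stands at 1.14 and 1.49 in the parental libraries and at 3.26 and 2.84 in TKO, and members without a point had no peak.

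HMGCS1 (ENSG00000112972) makes HMG-CoA, the precursor of mevalonate. It had no parental peak, the nearest summits being 170396 and 108832 bp away. Each TKO library had 1 peak over the TSS, at +57 and +17 bp, 380 and 344 bp wide. In TKO replicate 1 this was chromosome 5, 43313281 to 43313660 (hg19). It held 44 and 30 reads, or 2.21 and 2.30 per M, above the median of all bound genes in both libraries (1.55 and 1.92). By fold, which divides by the local background, it ranked low, at percentiles 39.4 and 23.2, with a background of 8.08 and 5.83 reads. The same measure was 3.25 and 3.16 reads at the SREBF1 peak. At the INSIG1 peak it was 6.45 and 6.33 reads, yet that peak, with 60 and 57 reads, stood at percentiles 82.4 and 79.8. The part of the background in the rank of HMGCS1 was not tested.

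IDI1 (ENSG00000067064), the isopentenyl diphosphate isomerase, had no parental peak within 5 kb, with nearest parental summits 60412 and 12410 bp away. The strongest TKO peak lay at -232 bp in replicate 1 and at -699 bp in replicate 2, both nearer to or inside WDR37, on the opposite strand. In TKO replicate 1 it spanned chromosome 10, 1094985 to 1095962 (hg19). Its summit was 187 and 280 bp from a TSS of WDR37, so the gene of the pair cannot be told apart. It held 30 and 18 reads, or 1.50 and 1.38 per M, at percentiles 48.8 and 69.7. TKO replicate 1 had further peaks at +123 and +503 bp, and TKO replicate 2 at -68 bp. By reads, though not by fold, the peak at -68 bp came first in TKO replicate 2, with 25 reads or 1.92 per M at percentile 34.5. Which peak is called strongest there thus depends on the measure. A CCAAT box lay within 50 bp of the summits at -232 and -68 bp. The stretch chr10:1095241-1095341 (hg19, forward strand), around the summit of TKO replicate 1, is shown with it in capitals.
IDI1 promoter: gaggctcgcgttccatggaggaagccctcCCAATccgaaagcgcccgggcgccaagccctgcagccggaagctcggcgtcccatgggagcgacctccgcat

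FDFT1 (ENSG00000079459), squalene synthase, commits the path to sterols. It had no parental peak, with nearest summits 955665 and 53489 bp away. It has 10 annotated start sites over 13571 bp, so more of its length counts as near a TSS than for the other members. TKO replicate 1 had peaks at +87 and +1939 bp, and TKO replicate 2 at +143, +36 and +1829 bp. Each offset is from the nearest of these start sites, so the offsets do not give the order of the peaks. The summit at +36 bp lay downstream of that at +143 bp, and 476 bp from that at +87 bp. The summits at +87, +143 and +36 bp were 186, 130 and 234 bp from the start of a noncoding gene. Those peaks cannot be given to FDFT1 alone. The strongest peak of each TKO library held 22 and 16 reads, or 1.10 and 1.23 per M, at percentiles 70.6 and 79.3. The strongest summit was the one at +1939 bp in replicate 1 and the one at +143 bp in replicate 2. Both peaks of TKO replicate 1 had an E-box within 50 bp of the summit, at -9 and -32 bp from it on the forward strand. The same E-boxes lay at -65 and 78 bp from the nearest summits of TKO replicate 2, outside that window.

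SQLE (ENSG00000104549), squalene epoxidase, had no Myc peak within 5 kb in any library. The nearest summit was 430744 and 430778 bp away in the parental libraries and 279980 and 430733 bp away in the TKO libraries. Myc at SQLE was thus not called at this depth. Over each whole list, the weakest peaks called held 13, 10, 9 and 7 reads in parental replicates 1 and 2 and TKO replicates 1 and 2. These are 0.492, 0.451, 0.451 and 0.537 per M. Peak lists give neither the reads nor the local background at SQLE, so these values are not its limits of detection. Of the member peaks within 5 kb, the one of FDFT1 at +87 bp in TKO replicate 1, with 0.652 per M, came closest to these values.

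**Figure D4:**
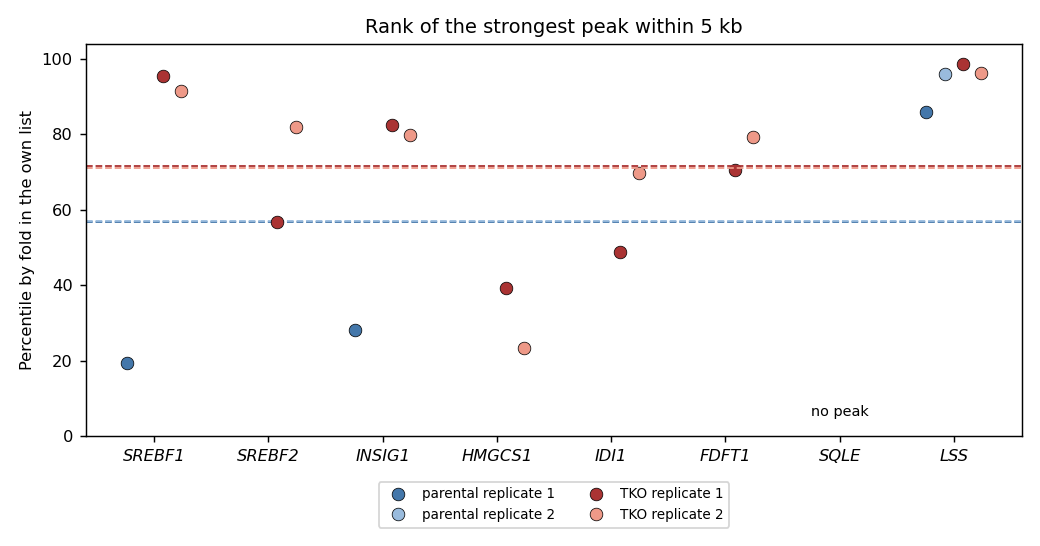
Percentile by fold enrichment, within each of the 4 lists, of each member's strongest Myc peak within 5 kb (100 is the strongest peak), with dashed lines at the median of all protein-coding genes with a peak in that list. LSS lies at 85.9 to 98.6, SREBF1 stands at 19.3 in parental replicate 1 and at 95.5 and 91.4 in TKO, and HMGCS1 is lowest in TKO at 39.4 and 23.2.

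In the TKO lists the members as a list ranked near other bound genes. The median percentile of their strongest peaks was 70.6 and 79.8, beside 71.7 and 71.0 for all genes with a peak. In parental cells the medians were 28.1 over 3 genes and 96.0 for LSS alone, beside 56.9 and 57.0. The means were 62.0 ± 48.0 and 75.2 ± 6.57 (SD, n = 2), and their difference, 13.2, was smaller than the parental SD (exact permutation p = 1). Without parental replicate 1 the difference was -20.8, so its direction rests on which members were called there.

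The strongest peaks were wider in TKO. The median width was 248 and 166 bp in the parental libraries, as against 380 and 393 bp in TKO, or 207 ± 58.0 and 386.5 ± 9.19 bp (SD, n = 2; exact permutation p = 0.333). For all bound genes the medians were 239 and 233 bp (parental) and 462 and 468 bp (TKO). The narrowest peak of each list, taken as the length to which fragments were extended, measured 140 and 151 bp in the parental lists, and 182 and 201 bp in the TKO lists. Its part in the widths was not tested.

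Few of the members' strongest peaks had an E-box at the summit. CACGTG lay within 50 bp of the summit of 0 of 3 and 0 of 1 such peaks in the parental libraries, and of 1 of 7 and 0 of 7 in TKO, the 1 being FDFT1 (difference 0.5 genes, exact permutation p = 1). Over all genes with a peak the shares were 21.9% and 18.8% (parental) and 9.99% and 8.47% (TKO). Counting every peak within 5 kb, 2 of 15 (13.3%) in TKO replicate 1 and 2 of 19 (10.5%) in TKO replicate 2 had one, beside 8.48% and 7.33% of all peaks near genes. The gene was FDFT1 in replicate 1 and SREBF1 and LSS in replicate 2, and E-boxes of FDFT1 and SREBF1 that lay just outside this window are not counted. CCAAT was found at 3 of 15 and 1 of 19 member peaks in TKO, beside 8.28% and 7.68% of all peaks near genes. CACGCG, a non-canonical E-box, was found at 1 of 15 in TKO replicate 1, at IDI1, beside 8.17%. The sterol regulatory element TCACNCCAC was found at no member peak within 5 kb. All motifs were searched on both strands. A match describes the letters and does not show that a factor was bound.

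Genes of the wider path were counted in the same way. Of 35 further genes of sterol and lipid synthesis, 11 and 9 had a peak within 5 kb in the parental libraries and 30 and 32 in the TKO libraries, or 10 ± 1.41 and 31 ± 1.41 (SD, n = 2; exact permutation p = 0.333). These are 31.4%, 25.7%, 85.7% and 91.4% of the list. Over all genes the shares were 13.9%, 15.5%, 54.5% and 55.5%. With 3720 peaks per list the difference of 21 pathway genes became 2. The shares of all genes there were 13.88% and 10.89% (parental) and 15.63% and 16.05% (TKO). In the full lists, 17 of the 35 further genes had a peak in each TKO library and none in parental cells, beside 32.4% of all genes. A peak in all 4 libraries was found for 7, beside 10.8%. Among those 7 were the enzymes MVK, CYP51A1 and DHCR7, the SREBP escort SCAP, and the fatty acid genes ACACA and ELOVL6. No peak was found in any library for 3 genes, among them the sterol transporter NPC1L1 and the sterol exporter ABCG1.

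By role, to be read against the same shares of all genes, 4 and 3 of the 17 enzymes of sterol synthesis were bound in parental cells and 15 and 17 in TKO. Of the 4 SREBP regulators, 1 had a peak in each parental library and all 4 in each TKO library. Of the 4 uptake genes, 1 and 2 had a parental peak and 2 had one in each TKO library, no more than in parental replicate 2. The 5 fatty acid genes numbered 5 and 2 in parental cells and 5 in each TKO library. Of the 5 liver X receptor genes, 0 and 1 were bound in parental cells and 4 in each TKO library.

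SCAP, which carries SREBP to the Golgi, had the strongest TKO peak of the 35. Its percentiles were 83.2 and 56.6 in the parental lists, then 97.5 and 99.2 in the TKO lists, and its peak had an E-box in all 4 libraries. ELOVL6 and DHCR7 followed, with mean TKO percentiles of 97.4 and 95.9. SCAP was thus ranked near LSS in TKO, but unlike LSS its summit carried the E-box. At the strongest peak of these further genes, 3 of 11 and 2 of 9 parental ones had an E-box, and 5 of 30 and 1 of 32 in TKO, beside 21.9%, 18.8%, 9.99% and 8.47% of all genes with a peak.

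**Figure D5:**
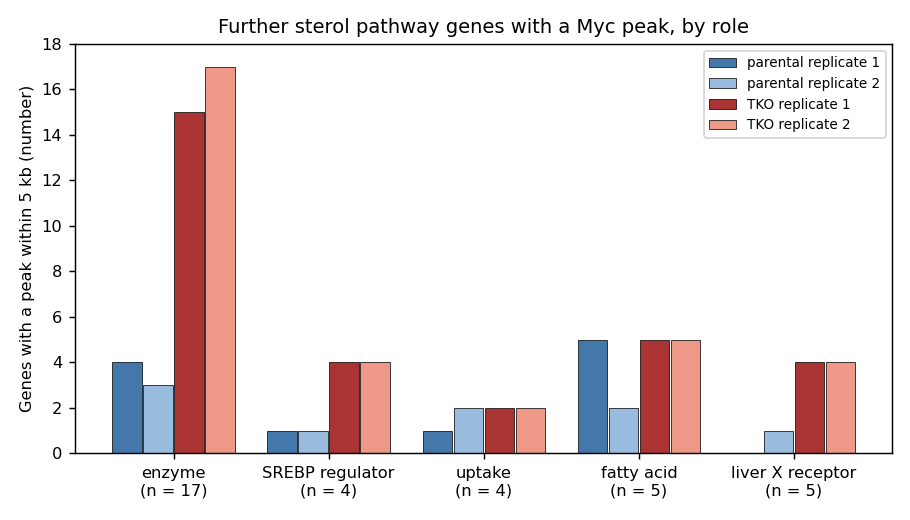
Number of further sterol pathway genes with a Myc peak within 5 kb of a TSS in each of the 4 libraries (bars), for 5 roles with the number of genes of each role under the axis. Of the 17 enzymes, 4 and 3 had a peak in the parental libraries and 15 and 17 in TKO, whereas the uptake genes stand at 1 and 2 and at 2 in each TKO library.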

How the data were processed

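Myc ChIP-seq peaks of 2 parental and 2 TKO libraries of MDA-MB-231 were analysed, grouped and numbered by their titles. Per the study's methods and processing notes, the authors aligned 50-cycle single reads to hg19 with Novoalign 3.08.02 and called peaks per library with MACS2 2.1.1.20160309 against input. Each deposited list gives a fold enrichment (a ratio), −log10 p-values and q-values, a summit position, and a score of 10 times the −log10 q-value that was not used. The lowest −log10 q-value was 2.03 to 2.07. Duplicate handling is not given in the sources used here.

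Start sites were 55884 basic protein-coding ones of GENCODE 44 lifted to GRCh37, and a gene's strongest peak was that of highest fold within 5 kb. Summit reads and background were solved from the deposited fold and p-value by MACS2's arithmetic, and reads came out whole within 0.02 for 100% of peaks (13.0% to 14.6% at 0.9 times the scale). Depth, with an assumed genome of 2700000000 bases, was 26.4 and 22.2 M reads in parental and 19.9 and 13.0 M in TKO libraries. It is a recovered estimate. Motifs were sought within 50 bp of summits in GRCh37.

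An exact two-sided permutation test over the 6 splits of 4 libraries was used between lines. All members were named. Of the 35 further genes, those with no peak, those with a peak in all 4 libraries and the 3 of highest mean TKO percentile were named, and for the member of highest mean percentile the 3 genes nearest in depth-scaled reads. Some genes these rules name are not reported here. Members, gene lists and tests were chosen with earlier results of these data known. Alternatives were windows of 10 kb, 1 kb and 500 bp, start sites of all basic transcripts, ranking by −log10 p-value, a −log10 q-value or fold of at least 5, equal lists, a motif window of 100 bp, the nearest peak, scaling to the shortest extension, a replicate block and each library left out. Scripts were tested on simulated data. Python 3.11.15, numpy 2.4.6, pandas 2.3.3, scipy 1.17.1, pysam 0.24.0 and samtools 1.23.1 were used.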

Additional observations from a re-analysis of the deposited data

How the results depend on the processing

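Across the alternatives 77 values kept their direction and moved by less than the spread between replicates, or for counts by less than 1.5 times, 13 moved and 4 reversed. The 77 include the values with a replicate block, which by arithmetic cannot differ from those reported. With 3720 peaks in every list, the differences between the lines became 1 peak, 0 genes within 5 kb, 0 genes within 1 kb and 2 further pathway genes, while the width difference became 303 bp and the E-box difference 0. TKO lists lose most of their peaks there by construction, and the share of all genes with a peak within 5 kb ranged only from 10.89% to 16.05%. At a fold of at least 5 the width difference was 265.5 bp. The E-box difference of 0.5 genes was 1.5 with a window of 100 bp, 1 with the nearest peak in place of the strongest, and 0 to 1 with libraries left out (0 without TKO replicate 1). The difference in depth-scaled reads of 1.74 per M was 0.985 at the shortest extension, -0.0961 with the nearest peak, which changes sign, and 1.53 to 2.02 with libraries left out. The highest came without parental replicate 2, when 3 members entered in place of LSS alone. The difference in median percentile of 13.2 changed sign at a fold of at least 5 (-20.0), with the nearest peak (-19.4) and without parental replicate 1 (-20.8); with libraries left out it ranged from -20.8 to 47.1. Where it kept its sign with all libraries it still lay between 4.35 (ranked by −log10 p) and 35.2 (window of 10 kb), within the parental SD of 48.0. Beyond the construction of these settings, the cause was not tested.

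The titles give no link between same-numbered libraries beyond the number. Their deviations from the means of the lines had a correlation of 0.0697 over 2146 genes. Such a correlation cannot show a shift common to all genes, so whether they shared a batch cannot be told. With a replicate block the differences of 5 genes and 15 peaks stay the same by arithmetic, so only the p-value could change. It was 0.5, the smallest that 4 arrangements allow in an exact permutation test. With 2 libraries per line and no spike-in, a gain in Myc binding and a higher yield of the immunoprecipitation cannot be told apart.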

Other observations

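RefSeq promoters, short stretches around a gene's start on GRCh38.p14, were searched for the same letters, and 6 of the 8 members were in that table. A member not named for a motif either had no match or was not among these promoters. Members are given as genes and the shares as percent of promoters, so their units differ. CACGTG was found at INSIG1 and LSS, beside 7.26% of all 35116 promoters. CACGCG was found at INSIG1 (11.4% of all), TCACNCCAC at SREBF2 (1.13%), and CCAAT at SREBF2, INSIG1, HMGCS1, IDI1 and LSS (34.6%). Among the peaks within 5 kb, none of INSIG1 had an E-box within 50 bp of its summit, and of LSS only the weak peak at +60 bp in TKO replicate 2 did. These are matches of letters and show no binding by SREBP or NF-Y, which were not measured.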
